A study of Mus musculus with 6 samples.

Results

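The 10 genes described here, Asap2, 2410018L13Rik, 5730507C01Rik, Gm4983, Gm5784, Gm6950, Gm10479, Gm17680, Gm6802 and Gm9312, lie on mouse chromosome 12 and carry near-identical V5-Dppa2 peaks at their transcription start sites (TSSs). They were selected by name in GENCODE M1 on mm9 because of those peaks, and the peaks assigned to them were those whose midpoint lay within 1000 bp of one of their TSSs or had one of them as the nearest TSS. This gave 10 peaks of the 3336 in the list, 1 for each gene. GENCODE M1 has 37273 genes on these chromosomes, and a peak midpoint was that close to 3820 of them, or 10.2%. Since the members were chosen for their peaks, their number, score and position are given as a description, with no test.

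Peaks came from an anti-V5 chromatin immunoprecipitation in CGR8 mouse embryonic stem cells, a feeder-free line grown with leukemia inhibitory factor, in which stable puromycin-selected clones expressed Dppa2 with an N-terminal V5 tag from a pPyCAG vector. The same immunoprecipitation in CGR8 cells without a V5 tag was the control of the peak calling. The tagged protein was therefore an added copy under a strong promoter. Each condition had 1 library, so there is no replicate error, and the read depth is not known from the list. The control library and the H3K4me1, H3K4me3, H3K27ac and H3K9me3 libraries were not analysed here. The list held peaks at TSSs: the midpoints of 98.4% of its peaks were within 1000 bp of an annotated TSS, so a copy of the sequence away from any annotated start falls outside its scope.

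Dppa2 is a SAP domain protein of pluripotent cells and early embryos, where it acts with its partner Dppa4 on chromatin. Asap2 encodes an Arf GTPase-activating protein with SH3, ankyrin repeat and PH domains that works in membrane traffic and at focal adhesions. Most of the other members are predicted genes without a known function. Gene clusters of this kind grow by duplication of long genomic segments, which copies promoters together with whatever exons lie beside them.

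All 10 peaks held the same element, a copy of the promoter and the first coding exon of Asap2. This exon is 126 bp long at the main Asap2 start and runs from the start codon to the first splice donor. Printed below are the exon at the main start, with the start codon in capitals, and the exon under 5 member peaks, with capitals at the bases that differ from the main start. They were chosen to show both starts of Asap2, the 2 other spliced coding members, and the members with the highest and the lowest score.
Asap2, main start (chr12:21117905-21118030, plus strand): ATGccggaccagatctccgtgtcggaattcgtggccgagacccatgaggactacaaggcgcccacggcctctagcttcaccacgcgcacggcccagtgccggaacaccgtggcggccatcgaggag
Asap2, start under the peak (chr12:20996610-20996733, plus strand): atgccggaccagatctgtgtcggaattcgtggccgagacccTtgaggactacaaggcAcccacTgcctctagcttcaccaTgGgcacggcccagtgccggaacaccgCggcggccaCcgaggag
5730507C01Rik (chr12:18521544-18521669, plus strand): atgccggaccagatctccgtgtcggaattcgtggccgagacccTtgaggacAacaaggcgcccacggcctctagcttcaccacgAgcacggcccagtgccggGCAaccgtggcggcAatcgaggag
Gm10479 (chr12:20421799-20421924, plus strand): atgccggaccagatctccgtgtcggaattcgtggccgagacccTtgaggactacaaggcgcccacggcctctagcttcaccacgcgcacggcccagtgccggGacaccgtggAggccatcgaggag
Gm4983 (chr12:17999939-18000064, plus strand): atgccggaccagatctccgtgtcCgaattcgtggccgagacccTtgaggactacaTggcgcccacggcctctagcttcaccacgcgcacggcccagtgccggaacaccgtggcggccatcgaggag
Gm9312 (chr12:24936921-24937046, minus strand): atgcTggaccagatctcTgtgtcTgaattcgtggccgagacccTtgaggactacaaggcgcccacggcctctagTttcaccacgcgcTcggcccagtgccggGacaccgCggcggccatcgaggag
The first coding exon under the Asap2 peak differed from the main start by 7 substitutions and 2 missing bases. 5730507C01Rik differed by 7 substitutions, Gm10479 and Gm4983 by 3 each, and Gm9312 by 8. Counted from the A of the start codon, A44T was found in all 10 members and in 40 of the 46 other copies of the exon, and A103G in 5 members and 26 copies.

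The highest score among the members was at Gm4983, a single-exon predicted gene of 336 bp, with 541 (10 times the −log10 p of MACS), which put it at rank 297 of 3336. Gm5784 and Asap2 were close to it, with 540 and 535. Gm6950 had a score of 443, Gm10479 436, 2410018L13Rik 428 and Gm17680 408.5. The lower end was formed by Gm6802 with 352, 5730507C01Rik with 329 and Gm9312 with 321, which was at rank 992. The median of the 10 was 432, against 228 over all peaks (quartiles 156 and 348), and all 10 were above that median. The 10 peaks were between 1679 and 2225 bp wide, with a median of 2069 bp against 1433 bp over all peaks, and all 10 were above the median width as well. The rank of a peak cannot be compared with replicate error, as there was 1 library.

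**Figure D1:**
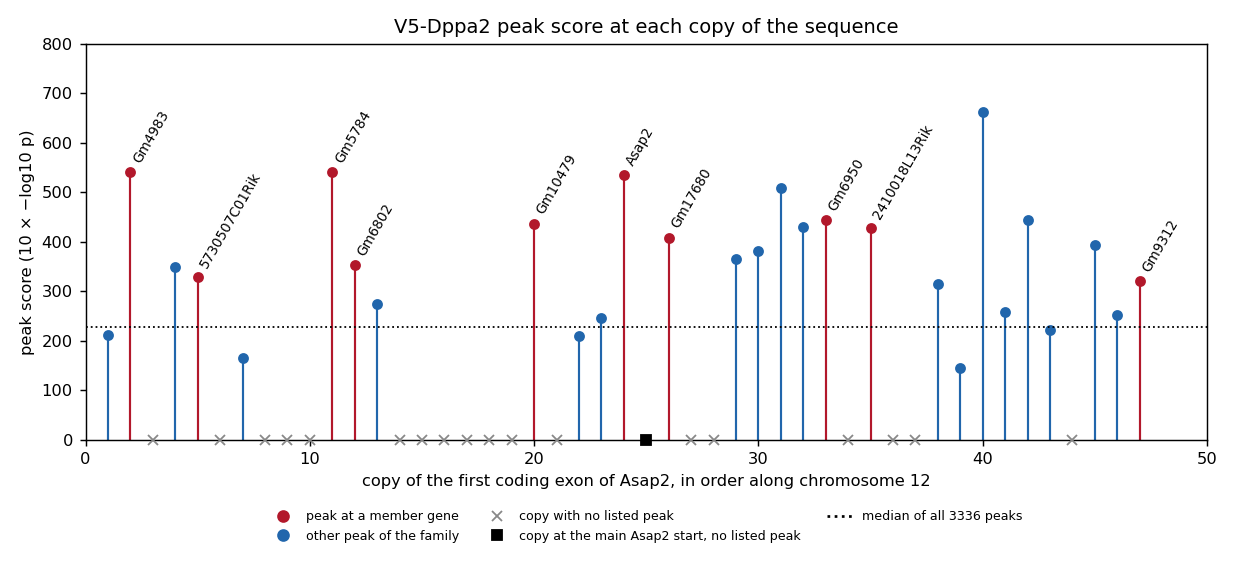
Peak score at each copy of the first coding exon of Asap2, in order along chromosome 12, for the 10 members, the 18 other peaks of the family and the copies without a listed peak, which are marked at the base line. The 10 members sit between 321 and 541, all above the dotted median of 228 over all peaks, and are spread along the whole cluster.

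The peak of Asap2 was not at the start of its main transcripts. It covered chr12:20995698-20997749, with the midpoint 403 bp downstream of the TSS of Asap2-003, a 10-exon transcript annotated as a target of nonsense-mediated decay. The main coding transcripts of Asap2, Asap2-001 and Asap2-004, start at 21117609, which is 121 kb further along the plus strand, and no peak midpoint of the list was closer to that start. A copy of the peak sequence lay at the main start (chr12:21116837-21119061), without a listed peak, although the TSS was annotated there. It was 91.5% identical to the sequence under the Asap2 peak. Its GC content was 62.5% and its CpG observed/expected ratio 0.713.

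Among the coding members, 5730507C01Rik (chr12:18521544-18540997, plus strand) had 4 exons and Gm10479 (chr12:20421799-20439560, plus strand) had 3. In both, the annotated start was the start codon itself, and the peak midpoint was 3 bp and 66 bp upstream of it. 2410018L13Rik (chr12:22990656-23046943, plus strand), a processed transcript with 5 annotated transcripts, had the peak midpoint 24 bp downstream of its nearest TSS. Gm6950 (chr12:22685582-22779713, plus strand), annotated as a pseudogene with 6 exons, had it 202 bp downstream.

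The remaining 5 members were single-exon genes annotated as protein coding. Gm4983 (chr12:17999939-18000274, plus strand) and Gm9312 (chr12:24936711-24937046, minus strand) were each 336 bp long and consisted of nothing but the reading frame from the start codon of the shared exon to the first in-frame stop, which ran through the splice donor into the intron. Gm5784 (chr12:19393665-19394072, plus strand) and Gm17680 (chr12:21834340-21834747, minus strand) were 408 bp long and started 278 bp before the start codon. Gm6802 (chr12:19496163-19498145, plus strand) was 1983 bp long and started 224 bp before it. Peak midpoints were 34 bp from the TSS at Gm4983, 16 bp at Gm9312, 273 bp at Gm5784 and 463 bp at Gm17680, all downstream, and 51 bp upstream at Gm6802. All 10 TSSs were inside their peaks.

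The start codon of the shared exon gives the peaks a common origin. Midpoints of the 10 member peaks were between 275 bp upstream and 185 bp downstream of the first base of the codon, with a median of 4 bp upstream. The annotated start was the codon itself at 4 members, Gm4983, 5730507C01Rik, Gm10479 and Gm9312, and was 31 to 290 bp upstream of it at the other 6. The members of the first kind had scores between 321 and 541 and those of the second kind between 352 and 540, so their ranges overlapped. Upstream edges of the peaks lay between 1130 and 759 bp before the codon and downstream edges between 564 and 1146 bp after it. The shortest downstream reach, 564 bp, was that of Gm6802, where the copy of the sequence was itself incomplete.

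**Figure D2:**
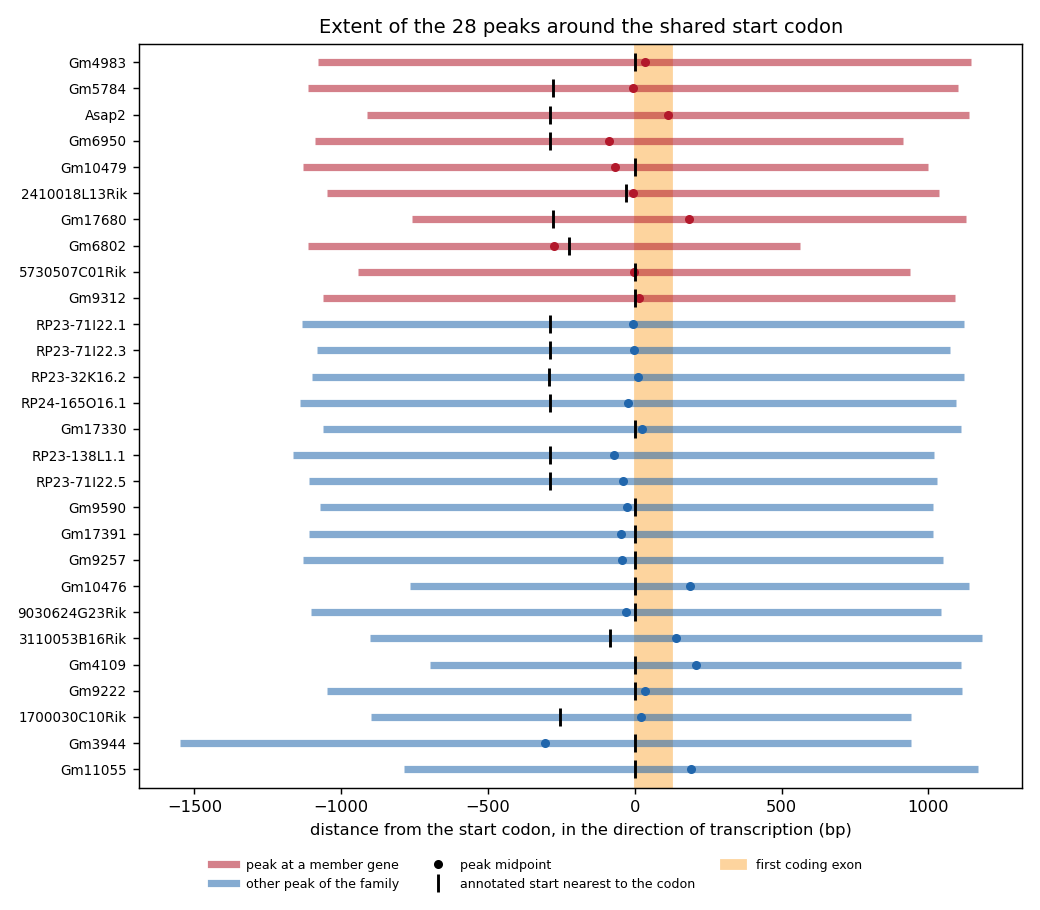
Extent of the 28 peaks of the family around the start codon of the shared exon, in bp in the direction of transcription, with dots at the midpoints and black ticks at the annotated start nearest to the codon. Midpoints lie between 306 bp upstream and 207 bp downstream of the codon, and every peak covers the first coding exon.

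The 10 member peaks belonged to 1 family of 28 peaks that were linked by shared stretches of at least 300 bp at 85% identity or more, and all 28 were on chromosome 12. The 18 other peaks of the family were nearest to Gm9222, Gm9590, Gm3944, Gm9257, 1700030C10Rik, 3110053B16Rik, RP23-71I22.5, RP23-138L1.1, RP23-71I22.3, RP24-165O16.1, Gm17391, Gm11055, RP23-71I22.1, Gm10476, RP23-32K16.2, Gm4109, Gm17330 and 9030624G23Rik. Of the 28 nearest genes, 16 were annotated as protein coding, 10 as pseudogenes and 2 as processed transcripts. The 18 other scores ranged from 145 at Gm11055 to 662 at the pseudogene RP23-71I22.1, with a median of 294, so that they enclosed the range of the members. Over the whole family the median was 359, and 23 of the 28 peaks were above the median of all peaks. It was the largest family of the list on a single chromosome, the next having 7 peaks. A family of equal size existed, but its peaks were spread over 16 chromosomes.

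The peak of Gm4983, the highest-scoring member, was used to count copies of the sequence in mm9. It had 44 copies that covered at least 80% of it at 85% identity or more, itself included, and all 44 were on chromosome 12, between 17887926 and 24938130, a span of 7.05 Mb. Of these copies, 26 were on the plus strand and 18 on the minus strand, and the median distance between neighbours was 132 kb. Gm6802 had 1 of 3 further copies that were incomplete, covering 69.4% of the sequence. With its own peak as the query, each member had between 40 and 45 copies in mm9, Gm17680 the fewest and Gm6802 the most.

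A peak was listed at 27 of the 44 copies, 9 of them at members, and at none of the other 17. An annotated TSS lay within 1000 bp of the centre at 28 copies, which were these 27 and the copy at the main Asap2 start. The remaining 16 copies had no annotated TSS that close and no listed peak, and for these the list cannot tell an unbound copy from one that was outside its scope. A peak that missed the authors' cutoffs on p and read number would also be absent, at the main Asap2 start too. Copies with and without a listed peak overlapped in identity and base composition. Those with a peak, besides Gm4983 itself, were 85.1 to 94.1% identical to it (median 92.8%), and those without one 86.4 to 94.4% (median 92.4%). The CpG observed/expected ratio had a median of 0.626 over the 27 copies with a peak and of 0.623 over the 17 without.

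Among themselves, the 9 members with a complete copy were 92.7 to 98.5% identical over aligned bases, gaps left out, with a median of 94.1% over 36 pairs. The closest pair was Gm10479 and Gm17680, 1413 kb apart on opposite strands, and the most distant 5730507C01Rik and Gm6950. For 5 of these 9 members the nearest copy was no member and had no listed peak. The copy most like Gm5784, at 99.3%, was 1227 kb away, had no annotated start and no peak, and was also the nearest copy to Asap2, at 98.5%. Gm6950 was 100% identical to the copy at RP23-138L1.1, on the opposite strand and 474 kb away, and the scores there were 443 and 381. Reads from such a pair cannot be assigned to one or the other, as the authors kept the best alignment of a read.

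Linking copies at 98% identity or more gave 8 groups of near-identical sequence. Gm5784 and Asap2, in 1 group, had 540 and 535, and Gm10479 and Gm17680, in another, 436 and 408.5. The group of Gm6950, RP23-138L1.1 and RP24-165O16.1 had scores from 381 to 443. By contrast, Gm3944, Gm11055, Gm10476 and Gm4109, 98.6 to 99.9% identical, had 145 to 258, and these were the only 4 of the 28 peaks with more than 5% of their 36-mers also outside chromosome 12. In the group of RP23-71I22.1, RP23-71I22.3 and RP23-32K16.2 the range was 445 to 662. A read can be placed on any copy that shares its sequence, so scores within a group are not independent values.

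The share of the sequence that a short read could not place was counted as the percentage of 36-mers found more than once in mm9 on either strand. It was 100% at Gm6950, 90.2% at Gm5784, 84.2% at Gm6802, 80.4% at Asap2 and 78.2% at Gm9312. Gm17680 had 77.2%, 2410018L13Rik 75.6%, Gm10479 73.5% and Gm4983 65%. The lowest share, 40.1%, was that of 5730507C01Rik. Over the 10 members the median was 77.7%, against 0% over all 3336 peaks, and 9 of the 10 were above 50%, compared with 7.43% of all peaks. A high share follows from the choice of genes with near-identical peaks, so this contrast is a description only. The members' 36-mers did not occur outside chromosome 12, apart from 0.054% of those of Gm17680. The most frequent 36-mer of a member occurred 34 to 36 times. 5730507C01Rik, in which most 36-mers were unique, had a score of 329, and its median 36-mer occurred once. In the copy at the main Asap2 start, which had no listed peak, 24.2% of the 36-mers were repeated. Listed peaks of the family at Gm9590 and 1700030C10Rik had lower shares, 21.9% and 21.7%. Across the other copies without a listed peak the share was 33.9 to 91.3%. How far reads from other copies entered a score was not tested.

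**Figure D3:**
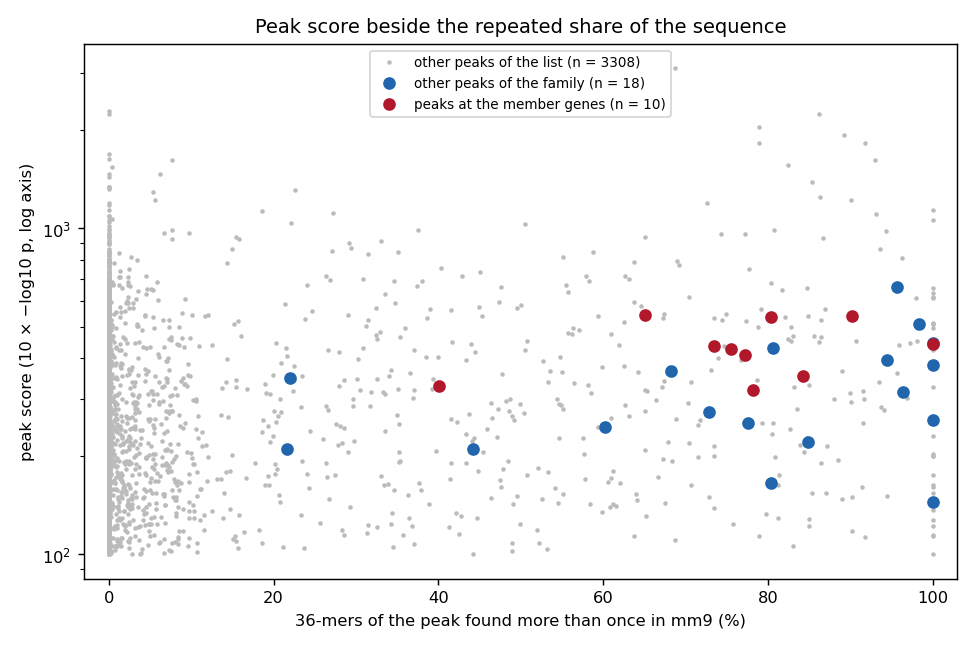
Peak score on a log axis against the percentage of 36-mers of the peak that occur more than once in mm9, for the members, the other peaks of the family and the rest of the list. The members, chosen for near-identical peaks, lie between 40.1 and 100% on the horizontal axis, where 7.43% of all peaks are above 50%.

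Rank correlations of the score with the repeated share were low. Spearman's rho was 0.18 over the 10 members, 0.22 over the 28 peaks of the family and 0.12 over all 3336 peaks, given as a description since the peaks share 1 library and, within the family, reads. Against the identity to the nearest copy it was 0.3 over 27 peaks, and against the identity to Gm4983 0.045 over 26.

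The exon itself was kept well across the cluster. In the 8 Mb of chromosome 12 searched, the first coding exon of Asap2 had 46 further copies at 80% identity or more, and they were 92.9 to 98.4% identical to it. All 47 had the start codon, and 45 had GT, the splice donor, straight after the exon. At the members the start codon and the GT were present in 10 of 10, and the frame was open through the exon in 9. The exception was Asap2 itself: in the copy under its peak the 2 missing bases shifted the frame, which then met a stop after 14 codons. In 8 members the frame ran on past the donor for 111 codons in all, as it did at 29 of the 47 copies, the main Asap2 start included. 2410018L13Rik lacked 3 bases of the exon and had a frame of 53 codons. Of the 28 genes in the family, 7 were annotated as exactly this frame of 111 codons with its stop and nothing else, and Gm9590 as exactly a frame of 107 codons with its stop.

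A stretch upstream of the start codon was less alike among the copies than the sequence on either side. In bins of 100 bp centred between 562.5 and 262.5 bp upstream of the centre of the Gm4983 peak, 90.8 to 93.6% of the copies on average had the most common base, against 96.4% in the bin over the first coding exon. Further upstream, in the bins centred between 1062.5 and 662.5 bp from the centre, this share was 97.2 to 98.1%. To show the less similar stretch, the sequence that precedes the annotated start of Asap2 is printed for the main start and for 3 members, 5′ to 3′ in the direction of transcription, with capitals at the bases that differ from the main start or are added to it. None of the printed sequence overlaps an annotated exon.
Asap2, main start (chr12:21117467-21117587, plus strand): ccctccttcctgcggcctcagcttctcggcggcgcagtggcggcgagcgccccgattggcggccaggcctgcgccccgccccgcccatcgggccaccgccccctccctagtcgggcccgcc
Asap2, start under the peak (chr12:20996188-20996308, plus strand): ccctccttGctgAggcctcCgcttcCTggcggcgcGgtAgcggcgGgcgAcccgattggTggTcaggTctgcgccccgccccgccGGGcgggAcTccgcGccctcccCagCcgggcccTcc
Gm4983 (chr12:17999519-17999638, plus strand): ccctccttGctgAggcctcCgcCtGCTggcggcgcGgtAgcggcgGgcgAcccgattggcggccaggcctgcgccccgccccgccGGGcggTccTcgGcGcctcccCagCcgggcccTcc
Gm9312 (chr12:24937347-24937472, minus strand): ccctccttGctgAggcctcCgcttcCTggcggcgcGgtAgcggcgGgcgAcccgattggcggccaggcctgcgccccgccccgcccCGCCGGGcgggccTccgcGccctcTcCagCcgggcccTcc
In a global alignment of each stretch with the main start (121 bp), the Asap2 copy under the peak differed by 21 substitutions. Gm4983 (120 bp) differed by 21 substitutions and 1 missing base, and Gm9312 (126 bp) by 17 substitutions and 5 added bases. The motif CCAAT stood on the opposite strand in all 4 stretches, as did GGGCGG. On the printed strand, GGGCGG also stood in the stretches of the 3 members, but not in that of the main start. In 1000 bp around the midpoint, CCAAT was found on either strand in 9 of the 10 member peaks, all but Gm17680, and in 55% of all peaks, and GGGCGG likewise in 9 of 10 and in 85.5%. In the central 300 bp, GGGCGG was found in 2 members, Gm6802 and Gm9312, and in 61.8% of all peaks, and CCAAT in no member and in 18.5%. TATAAA was found in no member in either window, and in 10.5% of all peaks in 1000 bp and 1.68% in the central 300 bp. GC content of the member peaks was 60.6 to 62.8%, around the median of 62% over all peaks, and their CpG observed/expected ratio 0.606 to 0.709, in all 10 cases below the median of 0.713. The 10 peaks hold copies of 1 sequence, so these motif and composition counts are not independent observations.

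Downstream of the Asap2-like exon, the unit carried exons of other genes. Matches to genes outside the region had no cutoff on identity or coverage, unlike the copies counted in the region. Exon 2 of 5730507C01Rik (127 bp) matched 140 genes outside the region, 59 of them named Zfp, with 92.8% identity to AU041133 and 91.3% to Zfp119a and Zfp958. Exon 3 (61 bp) matched 3 genes outside the region at 85.2 to 86.9% identity, and 1 of them, Zfp825, was named Zfp. Exon 4 (865 bp) matched 287, of which 156 were named Zfp, among them Zfp930 with 79.1% identity over 867 aligned positions and AW146154 with 79.6% over 856. Zfp genes encode zinc finger proteins, a large class of DNA-binding factors. In the region, exon 2 had 49 further copies at 94.5 to 98.4% identity and exon 3 had 49, with a median identity of 100%. Of the 44 copies of the peak sequence, 41 had exon 2 downstream within 60 kb on the same strand, and the nearest was at a median of 19.2 kb. Those without it were the copy at the main Asap2 start, the copy at 1700030C10Rik and 1 copy with neither an annotated start nor a peak. Exon 4 had 91 further matches in the region, and of the 92 in all, 79 lay downstream of a copy of the peak sequence by the same rule, around these 41 copies. At Gm5784 the matches were centred at 18.5, 19 and 19.5 kb, closer together than the exon is long. Matches of exon 4 could therefore overlap, and their number is not a count of separate exons.

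The distance to this exon, looked at after the values were seen, was short in 6 members and longer in 3. It was 16.3 kb at Gm5784, 16.8 kb at 2410018L13Rik, 16.9 kb at 5730507C01Rik, 17.4 kb at Gm10479 and Gm17680, and 22.3 kb at Asap2. At Gm6950 it was 25.8 kb, at Gm4983 30.9 kb and at Gm9312 34.5 kb, without a clear break between shorter and longer distances. With a split drawn afterwards between 22.3 and 25.8 kb, scores overlapped, with 329 to 540 at the 6 members below it and 321 to 541 at the 3 above. Gm6802 could not be placed, because its copy was incomplete.

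**Figure D4:**
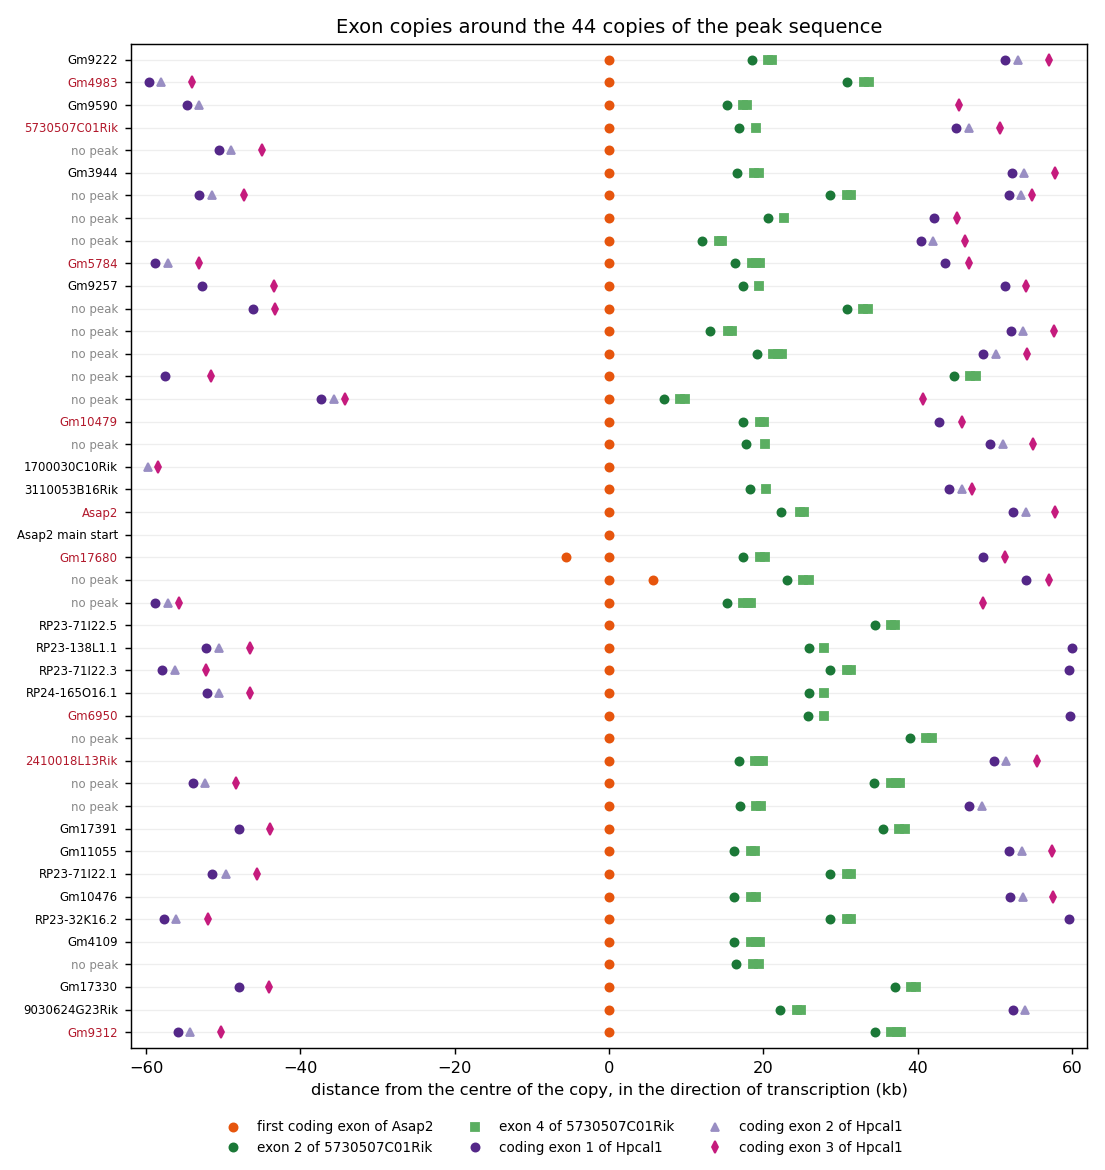
Copies of the first coding exon of Asap2, of exons 2 and 4 of 5730507C01Rik and of the 3 coding exons of Hpcal1 around each of the 44 copies of the peak sequence, on the same strand, by distance in kb in the direction of transcription up to 60 kb. An exon within reach of more than 1 copy is drawn at each, and matches of exon 4 can overlap. Exon 2 of 5730507C01Rik lies downstream of 41 copies, at 7.12 to 44.7 kb, and none is within that reach of the main Asap2 start.

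A further set of exons matched Hpcal1, which encodes a neuronal calcium sensor of the visinin-like family and lies just before the cluster on the same chromosome. Coding exon 1 of Hpcal1 (402 bp) had 56 further copies in the region, 83.1 to 90.5% identical to it. Coding exon 2 (106 bp) had 49 at 85.8 to 98.1%, and coding exon 3 (820 bp) 58 at 83.5 to 89.6%. Coding exon 1 lay within 60 kb downstream of the peak on the same strand at 7 of the 9 members that could be placed, and not at Gm4983 and Gm9312. Over all 44 copies of the peak sequence it lay there at 25. These counts depend on the reach of 60 kb. At Gm4109 and RP23-71I22.5 none was within it, but their annotated transcripts held such an exon further downstream. A copy of this exon was within 60 kb upstream on the same strand at 19 of the 44 copies, among them Gm9312 at 55.9 kb, Gm5784 at 58.9 kb and Gm4983 at 59.6 kb. The downstream distance was 42.8 kb at Gm10479, 43.5 kb at Gm5784, 45 kb at 5730507C01Rik, 48.4 kb at Gm17680, 49.9 kb at 2410018L13Rik, 52.4 kb at Asap2 and 59.7 kb at Gm6950.

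Annotated transcripts of the members used these exons in different combinations. 5730507C01Rik joined the Asap2-like exon, 94.4% identical to that of Asap2, to its exons 2 to 4, described above. Gm10479 joined it to exons 2 and 3, at 96.8% and 96.7% identity to those of 5730507C01Rik, and ended there. In Asap2-003 the exon under the peak was followed by exons 87.3% and 92.3% identical to coding exons 1 and 2 of Hpcal1, and then by 7 further exons. Gm6950 began in the same order, with exons 88.6% and 93.3% identical to those of Hpcal1. The transcripts of 2410018L13Rik held all 3 kinds, the Asap2-like exon, exons 2 and 3 of 5730507C01Rik at 95.3 and 100% identity, and exons 86.1 to 92.3% identical to those of Hpcal1. Over the family, all 28 genes had the Asap2-like exon in an annotated transcript, 5 had exon 2 or 3 of 5730507C01Rik and 12 had an exon of the Hpcal1 type.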

How the data were processed

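Peaks came from 1 V5-Dppa2 ChIP-seq library in CGR8 mouse embryonic stem cells. The deposited score was computed by the authors with MACS as −log10 p times 10, with the untagged cells as the control. They removed low-complexity reads and duplicates, aligned to mm9 with Bowtie, kept the best alignment of each read and called peaks with MACS. Only Dppa2 peaks that passed a p cutoff and had a minimum number of aligned reads were kept. The submitters' processing notes name Bowtie 0.12.7, Picard 1.81 and MACS 1.4.2. The lowest score of the list was 100.0. The other 5 samples were not analysed here.

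Peak midpoints were set against all GENCODE M1 TSSs on mm9 with a window of 1000 bp (Python 3.11.15, pysam 0.24.0). Shared sequence was found with BLAST+ 2.17.0 at 85% identity over at least 300 bp, copies in mm9 at 80% coverage of the Gm4983 peak, with pieces up to 12 kb apart, and exon copies at 80% identity and coverage. Matches of the exons to coding transcripts outside the region had no cutoff on identity or coverage. The 36-mers were counted on both strands of mm9. Steps were tested on simulated data. Named genes were the 10 members, the other genes nearest to peaks of the same family, and genes annotated on copies without a peak. Genes used as a sequence match are named besides. The members, lists and alternatives were chosen with earlier results of these data known, and no test was made, as 1 library gives no replicate error.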

Additional observations from a re-analysis of the deposited data

How the results depend on the processing

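The 8 summary values were recomputed under 38 alternatives, and 35 of these stayed within 1.5 times the reported count or within 1 SD of the spread between the member peaks. All 10 member genes kept a peak at a score of at least 200 or 300, with a TSS window of 500 or 5000 bp, and when any part of the peak could be near the TSS. None of these settings could remove a member, since the lowest member score was 321 and the largest distance from midpoint to TSS was 463 bp. Alternatives of this kind are among the 35, so that count is no measure of robustness. With TSSs of protein-coding genes only, 8 members remained, since 2410018L13Rik and Gm6950 are annotated as noncoding. The peaks assigned to members then numbered 12, with a median score of 419.6, as the nearest TSS of some peaks was another gene's. Assignment of peaks to genes thus depended on the annotation used. The family of 28 peaks fell to 18 at a score of at least 300. At 95% identity to the Gm4983 peak the 44 genome copies fell to 1, Gm4983 itself, and the copies with a peak from 27 to 1, because no other copy is that close to it with gaps counted. At 95% identity between peaks the family held 20 peaks in all, which fell into 3 separate families. No paired analysis was possible because there was 1 library and no comparison between groups. Depth is unknown, the list holds peaks at annotated starts, and reads in repeated sequence may come from any copy.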

Other observations

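Over the whole list, 83 sequence families of at least 2 peaks were found at 85% identity over at least 300 bp, and they held 341 of the 3336 peaks. Of all peaks, 248 had more than 50% of their 36-mers repeated in mm9, and 224 of them were outside the chromosome 12 family. Peaks in repeated sequence at other places were not described further.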
